A study of Mus musculus with 4 samples.

Results

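The glandular kallikreins are a family of secreted serine proteases. The 10 genes described here are Klk1, Klk1b1, Klk1b3, Klk1b4, Klk1b5, Klk1b9, Klk1b11, Klk1b22, Klk1b24 and Klk1b26, found by their symbols among the 32285 genes of a single-cell count matrix. They were taken by name, with earlier results of these data known, and were described over classes of cells from a clustering that used no Klk gene, although the rule that named the classes was set after family levels by cluster had been seen. The cells came from the submandibular gland (SMG) and the sublingual gland (SLG), pooled, of wild-type (WT) female C57BL/6N mice aged 6 to 8 weeks, with no treatment ("physiological status"). The labels list 4 samples of this single group and name 2 mice, while the study's methods give another number of mice. The samples were deposited as 1 matrix of 15707 cells and 125100595 unique molecular identifiers (UMIs, each standing for 1 captured mRNA molecule), and the cell barcodes carried 1 suffix with no mark of gland, animal or sample. There was therefore no spread between animals to test against, SMG cells could not be set against SLG cells, and every interval below is a 95% exact Poisson or binomial interval that covers counting error only.

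In rodents these genes arose by local duplication, and the gene array encodes enzymes made in the ducts of salivary glands. Klk1 is tissue kallikrein, which cuts kininogens to release kinins. Klk1b4 encodes a protein that lacks protease activity. Klk1b9, Klk1b22 and Klk1b26 encode proteins known as epidermal growth factor (EGF) binding proteins, and Klk1b26 is also known to cut prorenin. The granular ducts of the mouse SMG store these proteases together with EGF and renin, and are less developed in females than in males.

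All 14 glandular kallikrein genes of the GENCODE M21 annotation (GRCm38, the build the labels call mm10) lay on the plus strand of chromosome 7 within 278955 bases, from 43950664 to 44229618. Of the members, Klk1b1 (43966751 to 43971318), Klk1b9 (43976061 to 43980376), Klk1b11 (43995877 to 43999875) and Klk1b26 (44012168 to 44016968) stood toward the upstream end. Klk1b22 (44112673 to 44116922) followed, then Klk1b24 (44188236 to 44192455), Klk1b3 (44198191 to 44202352), Klk1b4 (44207435 to 44211754), Klk1b5 (44215945 to 44220703) and Klk1 (44225360 to 44229618). The stretch of 100 bases just before the RefSeq start site (GRCm38.p6, plus strand) is shown for the member with the most UMIs and for 4 Klk1b members, because the Klk1b members shared a TTTAAA hexamer there, given in capitals.
Klk1 (chr7:44225260-44225359): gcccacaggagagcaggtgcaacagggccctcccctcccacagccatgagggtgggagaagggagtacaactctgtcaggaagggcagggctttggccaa
Klk1b26 (chr7:44012578-44012677): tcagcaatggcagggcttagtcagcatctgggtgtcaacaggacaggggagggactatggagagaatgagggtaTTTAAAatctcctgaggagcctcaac
Klk1b11 (chr7:43995777-43995876): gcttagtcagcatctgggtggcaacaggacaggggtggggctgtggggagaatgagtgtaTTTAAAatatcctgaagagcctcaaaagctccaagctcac
Klk1b22 (chr7:44112573-44112672): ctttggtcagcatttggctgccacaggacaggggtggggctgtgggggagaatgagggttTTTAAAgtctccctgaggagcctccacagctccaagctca
Klk1b3 (chr7:44198091-44198190): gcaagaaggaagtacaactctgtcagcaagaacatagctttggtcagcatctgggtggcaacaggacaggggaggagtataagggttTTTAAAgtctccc
TTTAAA, which reads the same on both strands, was within 100 bases before the start in 9 of the 10 members, all of them Klk1b genes, and in 4.39% of 32851 mouse promoters. TATAAA, searched on both strands, was in none of the 10 there and in 5.56% of all promoters. Over the window of 250 bases before to 50 after the start, pairs of Klk1b members were 65.5% to 88.9% identical (median 79.6%, 36 pairs), while Klk1 was 48.1% to 59.8% identical to the Klk1b members (median 49.4%, 9 pairs). The annotated start sites are not placed alike, so the hexamer began 13 bases before the start in Klk1b3 and 48 in Klk1b4.

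The cells fell into 23 clusters, of which 17 were named from marker lists into 13 classes holding 9330 cells (59.4%), and the others kept their cluster numbers. The granular or striated duct-like class (712 cells) had Crisp3, Scgb1c1 and Egf among its leading genes, and carried the sodium channel genes Scnn1a and Scnn1b of striated duct. The class described next and the Ascl3 and Foxi1 duct-like class carried both sodium channel genes too. Scnn1b was highest in the Ascl3 and Foxi1 duct-like class, so these genes did not set the granular or striated class apart. A second class (485 cells) carried Egf and Crisp3 together with Ascl3, Foxi1 and Cftr, which mark ionocyte-like duct cells, and is called duct-like with granular and Ascl3 markers. Its median of 4753 UMIs and 1758 genes per cell stood above the 2919.5 UMIs and 1020.5 genes of the granular or striated class and the 2450 UMIs and 1087 genes of the Ascl3 and Foxi1 duct-like class (1072 cells). Its median Scrublet doublet score was 0.061, the same as over all cells, beside 0.045 and 0.038 in those classes, and whether its barcodes hold more than 1 cell was not tested. The other duct classes were Slc13a2 and Slc9a3 duct-like (488 cells) and basal or myoepithelial-like (232 cells). The largest unnamed clusters, 0 (2814 cells) and 1 (2485 cells), had medians of 324.5 and 421 genes per cell and were led by secreted acinar products or mitochondrial transcripts.

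The family gave 1025495 UMIs, 0.820% of all UMIs, and 85.4% of these were Klk1, which ranked 11th of all genes. Klk1 gave 876009 UMIs and Klk1b26 81251. Klk1b11 gave 23316, Klk1b5 13136, Klk1b9 10430, Klk1b4 9410, Klk1b22 8051 and Klk1b3 2866, and the scarcest members were Klk1b1 (576) and Klk1b24 (450). UMIs tag the 3′ end and were not divided by gene length. All 10 members had their highest level in the granular or striated duct-like class and the next highest in the class with granular and Ascl3 markers. Of 6459 genes with at least 500 UMIs, 42.3% were highest in some duct class and 2.20% in the granular or striated duct-like class. The granular or striated class and the class with granular and Ascl3 markers together held 7.62% of the cells and 3.87% of all UMIs, but 68.7% of the family's UMIs (interval 68.6% to 68.8%). For single members the share ran from 68.0% for Klk1b24 to 72.4% for Klk1b4.

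**Figure D1:**
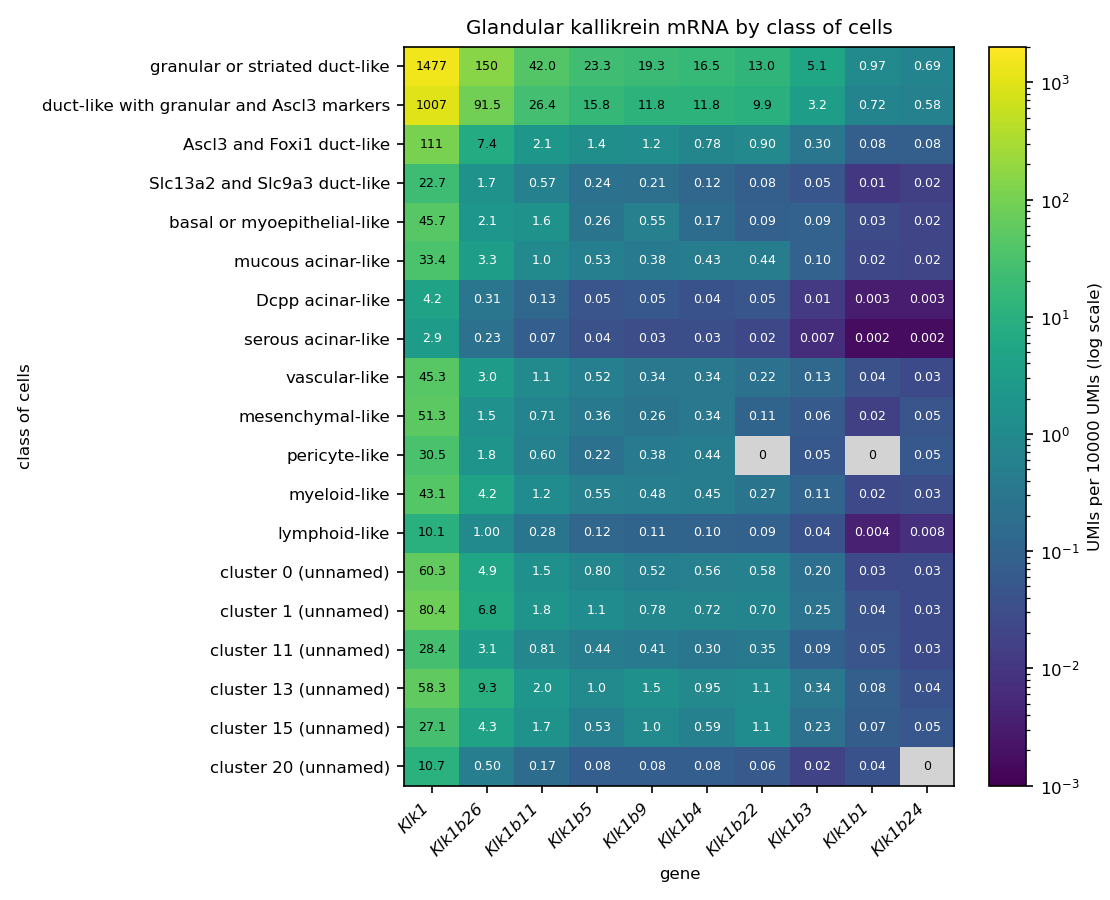
Level of each of the 10 members (columns) in each class of cells (rows), in UMIs per 10000 UMIs of the class on a log colour scale, with the level printed in each cell and grey for no UMI. The top row, granular or striated duct-like, is the highest in every column, from 1477 for Klk1 to 0.69 for Klk1b24.

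Klk1, the kinin-releasing enzyme, stood at 1477 UMIs per 10000 in the granular or striated duct-like class (interval 1472 to 1482) and at 1007 in the class with granular and Ascl3 markers (1003 to 1010). It stood at 111 in the Ascl3 and Foxi1 duct-like class, 45.7 in the basal or myoepithelial-like class and 22.7 in the Slc13a2 and Slc9a3 duct-like class. Outside the ducts it was 80.4 in unnamed cluster 1, 60.3 in unnamed cluster 0, 51.3 in mesenchymal-like cells, 45.3 in vascular-like cells, 43.1 in myeloid-like cells, 10.1 in lymphoid-like cells and 2.87 in serous acinar-like cells. Mucous acinar-like cells stood at 33.4 and Dcpp acinar-like cells at 4.23. In UMIs per cell, Klk1 was at 489.9 in granular or striated duct-like cells, 41.6 in cluster 1, 40.3 in mucous acinar-like cells, 18.0 in cluster 0, 16.2 in vascular-like cells, 12.7 in mesenchymal-like cells, 11.2 in myeloid-like cells, 8.10 in serous acinar-like cells and 2.14 in lymphoid-like cells. Serous acinar-like cells were thus the lowest of these per 10000 UMIs and lymphoid-like cells the lowest per cell.

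Klk1b26, the EGF-binding protein and prorenin-cutting enzyme, was second to Klk1 in every class, at 150 UMIs per 10000 in granular or striated duct-like cells, 91.5 in those with granular and Ascl3 markers and 7.39 in Ascl3 and Foxi1 duct-like cells. Klk1b22, another EGF-binding protein, stood at 13.0 and 9.91 in the first and second of these classes and 0.90 in the third, and Klk1b9, the remaining one, at 19.3, 11.8 and 1.20. Klk1b3 (5.14, 3.23 and 0.30) and Klk1b4 (16.5, 11.8 and 0.78) followed the same order. So did Klk1b11 (42.01, 26.4 and 2.12) and Klk1b5 (23.3, 15.8 and 1.40). Outside the ducts, unnamed cluster 13 stood above the Ascl3 and Foxi1 class for Klk1b26 (9.32), Klk1b9 (1.47), Klk1b4 (0.95) and Klk1b3 (0.34). For Klk1b1 both stood at 0.079. Unnamed cluster 15 stood above the Ascl3 and Foxi1 class for Klk1b22 (1.13). It was led by Smgc and carried 7 genes of the general duct list and 4 of the serous acinar list, so its place was not settled. Of these members only Klk1b26 had intervals that did not overlap, and that order rested on few cells. The 5% of cells richest in Klk1b26 held 78.6% of its UMIs in cluster 13. With such cells left out of each class, cluster 13 stood at 2.08 and the Ascl3 and Foxi1 class at 4.11. For Klk1b22, treated alike, cluster 15 stood at 0 and the Ascl3 and Foxi1 class at 0.46. For 4 of the 10 members the Ascl3 and Foxi1 class stood above every class or unnamed cluster outside the duct classes. Klk1b1 and Klk1b24 were below 1 UMI per 10000 everywhere, at 0.97 and 0.69 in the granular or striated class.

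On the log2 scale the granular or striated class stood above the second by between 0.24 (Klk1b24) and 0.72 (Klk1b26). For Klk1b24 the interval of this difference included 0 (-0.10 to 0.57), so the order of these classes could not be told for that gene, whereas for the other 9 members the interval lay above 0. In UMIs per cell the order of the summed family turned round, with 600.9 in the class with granular and Ascl3 markers and 579.9 in the granular or striated class, and their medians of 439 and 434.5 lay close together. From the highest duct class to the highest class outside the ducts, which was unnamed cluster 1, the summed family went from 1748 to 92.7 UMIs per 10000, a log2 ratio of 4.24 (4.23 to 4.25). This ratio depended on the clustering far more than its counting interval shows: it was 1.90 at a resolution of 0.8 and with 10 principal components, where the highest other class was a cluster of 75 or 85 cells with both duct and lymphoid markers, 3.06 with 30 components and 2.65 with cells gated one by one. The gated value set 29 cells gated by the granular marker list against 15 ungated cells. Against the highest named class outside the ducts, the mesenchymal-like cells at 54.8, the log2 ratio was 4.997 (4.95 to 5.04). That rank rested on 13 mesenchymal-like cells that held 87.3% of the family UMIs of their class. With the 5% of cells richest in the family left out of each class, mesenchymal-like cells stood at 7.67 and mucous acinar-like cells, at 31.5, were the highest named class outside the ducts.

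Most genes stood higher in duct than in other cells on this scale, so the members were read against all genes. Of the 6459 genes, 55.0% were over 4-fold higher in granular or striated duct-like cells than in all cells outside the duct classes, and all 9 members with enough UMIs passed (Klk1b24 had too few). Their median fold was 80.0, from 66.5 for Klk1b22 to 89.1 for Klk1b9 (Klk1b24 included), beside a median of 4.26 over all genes. In the class with granular and Ascl3 markers 9 of 9 passed beside 66.0% of genes, with a median fold of 52.9 beside 5.20. In Ascl3 and Foxi1 duct-like cells 8 of 9 passed beside 66.9% of genes, and the median fold of the members, 4.79, was near that of all genes, 5.12. In the Slc13a2 and Slc9a3 class (50.2% of genes) and the basal or myoepithelial-like class (69.0% of genes) no member passed, with median folds of 0.89 and 1.74.

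Free RNA can give UMIs in cells that do not express a gene, and it was not measured here. Lymphoid-like cells, which should lack the family, had at least 1 Klk1 UMI in 67.3% of cells at a median of 1866 UMIs, against 99.6% in granular or striated duct-like cells. With every cell thinned to 1000 UMIs, which lost no cell, Klk1 was seen in 97.1% (95.5% to 98.2%) of granular or striated duct-like cells, 99.8% of those with granular and Ascl3 markers, 90.02% (88.1% to 91.7%) of Ascl3 and Foxi1 duct-like cells and 46.4% (43.6% to 49.2%) of lymphoid-like cells. The 50.2% (45.7% to 54.7%) in Slc13a2 and Slc9a3 duct-like cells had an interval that overlapped that of lymphoid-like cells. Other cells outside the ducts lay nearer to the Ascl3 and Foxi1 class, with 83.7% in cluster 1, 83.1% in cluster 13, 77.3% in cluster 0, 66.4% in mucous acinar-like cells and 59.7% in vascular-like cells. Klk1b26 was seen in 78.4% of thinned granular or striated duct-like cells, 33.4% of Ascl3 and Foxi1 duct-like cells and 7.88% of lymphoid-like cells. Klk1b22 gave 29.8%, 7.84% and 0.57%, and Klk1b3 gave 23.2%, 2.33% and 0.49%. In some classes, duct classes among them, the family sat in few cells. The 5% of cells with the most family UMIs held 18.0% of them in the granular or striated class. They held 59.1% in the Slc13a2 and Slc9a3 duct-like class and 59.9% in the basal or myoepithelial-like class. Leaving such cells out took mesenchymal-like cells from 54.8 to 7.67 UMIs per 10000 and myeloid-like cells from 50.4 to 8.07. Lymphoid-like cells treated alike stood at 6.64. The Slc13a2 and Slc9a3 class went from 25.6 to 11.3, and the basal or myoepithelial-like class from 50.6 to 21.9.

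**Figure D2:**
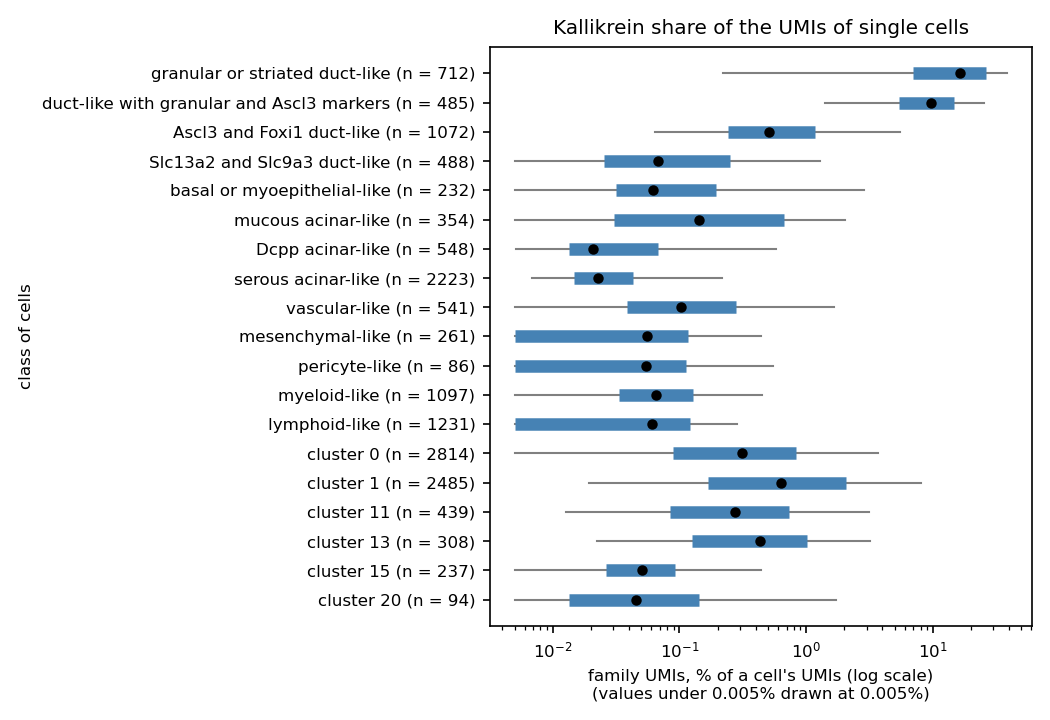
Share of a cell's UMIs that came from the 10 members (x axis, percent on a log scale) by class of cells. Points are medians, thick bars the 25th to 75th percentiles and thin lines the 5th to 95th percentiles over cells. The medians of the top rows are 16.4% and 9.75%, and the third row is at 0.51%.

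In single cells the family could make up a large part of all mRNA captured. The median granular or striated duct-like cell gave 16.4% of its UMIs to the 10 members, with 0.22% at the 5th percentile, 38.7% at the 95th and 50.9% in the highest cell. The medians were 9.75% in cells with granular and Ascl3 markers, 0.51% in Ascl3 and Foxi1 duct-like cells and 0.068% in Slc13a2 and Slc9a3 duct-like cells. A median of 6 members was detected per granular or striated duct-like cell, 37 of the 712 cells (5.20%) had all 10, and 20 (2.81%) had Klk1 alone. Klk1 was spread more evenly than the Klk1b members: the 5% of cells richest in a gene held 16.4% of Klk1 UMIs in this class, 29.5% of those of Klk1b11, 42.4% of those of Klk1b26 and 55.9% of those of Klk1b22.

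The make-up of the family changed between cells of the same class. Among the 590 granular or striated duct-like cells with at least 100 family UMIs, Klk1 made up a median of 91.5% of them, but 61.4% at the 5th percentile and 98.4% at the 95th, and the share of Klk1b26 ran from 0.11% to 22.8%. The 436 such cells with granular and Ascl3 markers gave a median Klk1 share of 91.9%, with 66.1% and 98.5% at the same percentiles. Summed over the class, there were 9.84 Klk1 UMIs per Klk1b26 UMI in granular or striated duct-like cells (9.73 to 9.94), 11.0 (10.9 to 11.2) in those with granular and Ascl3 markers and 15.0 (14.4 to 15.7) in Ascl3 and Foxi1 duct-like cells. With the 5% of cells richest in the family left out of each class these became 12.7, 15.7 and 14.5, so the order of the 3 classes rested on those cells.

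The share of Klk1b members differed between cells with and without UMIs of Egf, the gene of the growth factor that 3 of the proteins are named for binding. Egf was not the gene that went most closely with them: across granular or striated duct-like cells the summed Klk1b members correlated at 0.70 with Crisp3, 0.54 with Egf and 0.16 with Ren1, and across cells with granular and Ascl3 markers at 0.66, 0.61 and 0.17. Cells were split, after the data had been seen, by their Egf UMIs after thinning to 1000 UMIs, and Egf also belongs to the marker list that named the class. In granular or striated duct-like cells Klk1 made up 89.7% (89.5% to 89.9%) of family UMIs in the 560 cells with none, 85.2% (84.8% to 85.7%) in the 92 cells with 1 and 66.9% (66.3% to 67.6%) in the 60 cells with 2 or more. In the class with granular and Ascl3 markers the shares were 90.4% (403 cells), 83.2% (46 cells) and 68.0% (36 cells). The family as a whole was also higher in cells with more Egf UMIs: its median per 1000 UMIs in the granular or striated class was 132 (quartiles 50.75 and 232.25), 231.5 (164.75 and 300) and 306.5 (237.5 and 390) over the same steps.

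In the granular or striated class each Klk1b member was further apart between these cells than Klk1 was, with counting intervals that did not overlap. From cells with no Egf UMI to those with 2 or more, mean Klk1 went from 133 to 202 UMIs per 1000, a fold of 1.52 (1.49 to 1.55). Klk1b26 went from 8.14 to 56.1 (6.90-fold), Klk1b22 from 0.49 to 6.88 (14.2-fold), Klk1b9 from 1.07 to 7.93 (7.42-fold), Klk1b4 from 0.84 to 6.60 (7.88-fold) and Klk1b3 from 0.23 to 2.33 (10.4-fold). Klk1b5 was 6.41-fold higher and Klk1b24 7.11-fold (3.47 to 14.3), Klk1b1 reached 17.7-fold from a mean of 0.034, and Klk1b11 had the smallest fold of the Klk1b members at 3.44 (3.14 to 3.76). The second class gave 1.42-fold for Klk1 (1.38 to 1.47) and from 3.60-fold (Klk1b11) to 10.8-fold (Klk1b22) for 8 Klk1b members. Klk1b24 gave 2.80-fold there from 5 UMIs in 36 cells and 20 in 403, and its interval (0.82 to 7.68) included the fold of Klk1. The cells with 2 or more Egf UMIs were deeper before thinning (median 3947 UMIs against 2840 in the first class), and with cells of 1 pooled matrix no test over animals was possible.

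**Figure D3:**
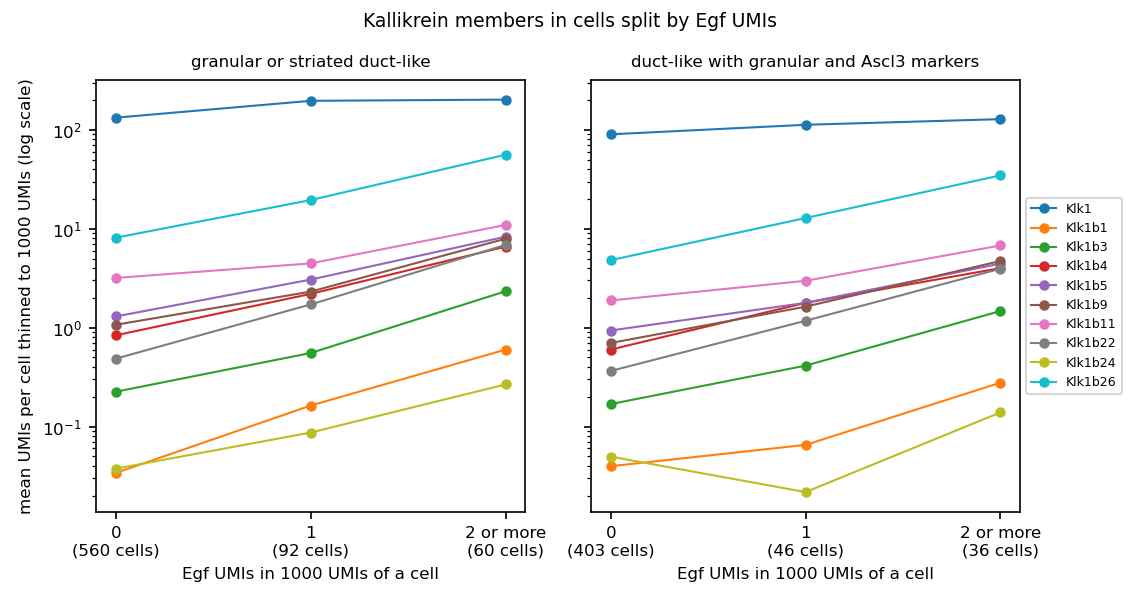
Mean UMIs of each member per cell thinned to 1000 UMIs (y axis, log scale) in cells with 0, 1, or 2 or more Egf UMIs (x axis), for the granular or striated duct-like class (left) and the class with granular and Ascl3 markers (right). Klk1 is the topmost line and the flattest from 0 to 2 or more, with folds of 1.52 on the left and 1.42 on the right, from which Klk1b24 on the right (2.80) could not be told apart.

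Across cells of a class the members moved together to differing degrees. The Pearson correlation of log2(UMIs per 10000 + 1) over the 712 granular or striated duct-like cells ranged over the 45 pairs of members from 0.14 (Klk1 with Klk1b1) to 0.76 (Klk1b5 with Klk1b26), with a median of 0.51. Klk1b4 with Klk1b5 gave 0.74 and Klk1b4 with Klk1b26 0.72. Klk1 correlated with Klk1b5 and Klk1b26 at 0.60 but with Klk1b22 at 0.35. These cells share 1 library and a cell's total, and the values are descriptions. Many of the low pairs, but not all, involve the scarcest members, Klk1b1 and Klk1b24. Klk1 with Klk1b3 gave 0.36, while Klk1b3 with Klk1b22, both scarcer than Klk1, gave 0.65. The median over pairs was 0.52 in cells with granular and Ascl3 markers and 0.23 in Ascl3 and Foxi1 duct-like cells.

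**Figure D4:**
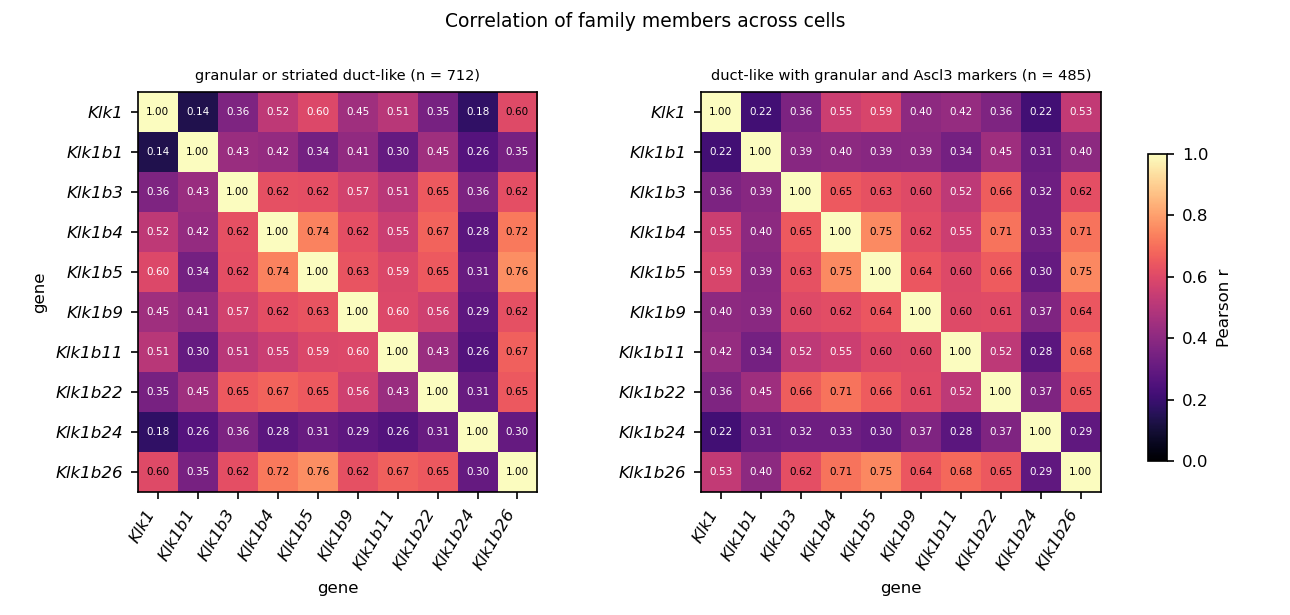
Pearson correlation between members of log2(UMIs per 10000 + 1) across cells of the granular or striated duct-like class (left, 712 cells) and the class with granular and Ascl3 markers (right, 485 cells). Both panels show their highest value for the pair of Klk1b5 with Klk1b26 or with Klk1b4, and low values in the rows of Klk1b1 and Klk1b24.

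Levels differed between neighbours in the array by up to orders of magnitude. In the granular or striated duct-like class they went from 0.97 UMIs per 10000 for Klk1b1 through 19.3 for Klk1b9 and 42.01 for Klk1b11 to 150 for Klk1b26 along 4 adjoining genes. From Klk1b24 (0.69) they went through Klk1b3 (5.14), Klk1b4 (16.5) and Klk1b5 (23.3) to Klk1 (1477) along the last 5. This order was noticed after the values were seen and was not tested. Of the 4 glandular kallikrein genes that are not members, Klk1b16 stood at 11.1, Klk1b21 at 4.15, Klk1b8 at 1.97 and Klk1b27 at 1.79 in the same class, each at its highest there. The 12 Klk genes outside the glandular group gave at most 187 UMIs each in all cells (Klk8), and 7 of them none. A count of 0, taken as at most 3 UMIs, allows up to 0.00024 UMIs per 10000 over all cells pooled. In the granular or striated class alone the exact upper limit for a count of 0 was 0.0156.

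**Figure D5:**
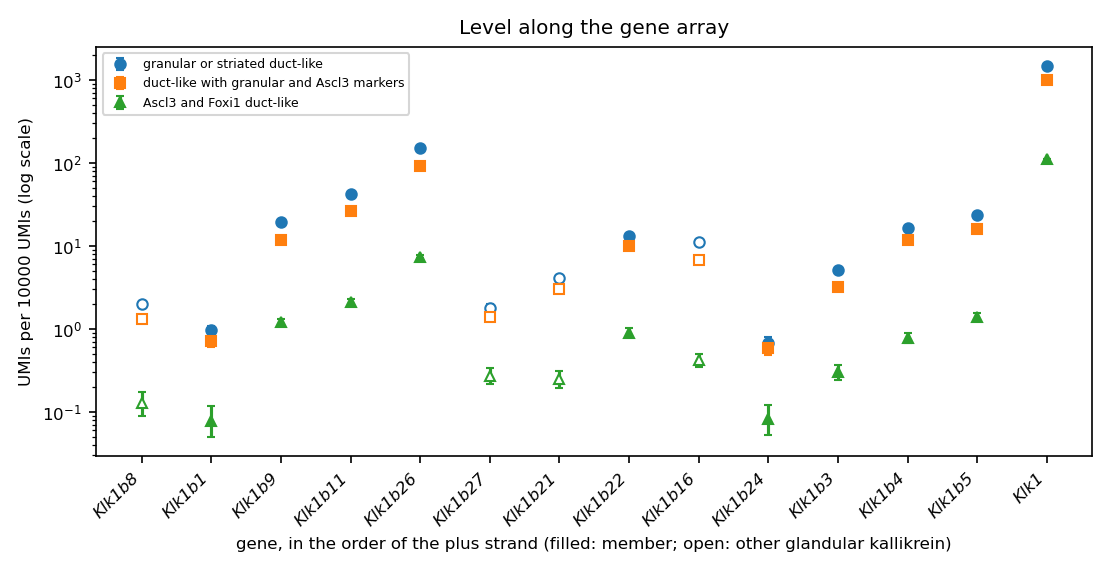
Level of the 14 glandular kallikrein genes (x axis, in plus-strand order) in UMIs per 10000 (y axis, log scale) in 3 duct classes, with 95% Poisson intervals; filled symbols are the 10 members and open symbols the other genes. Klk1b26 and Klk1 are the highest, and the granular or striated duct-like class lies above the Ascl3 and Foxi1 duct-like class for every gene.

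The 3′ ends of most members could be told apart. In windows of 90 bases over the last 400 bases of each member's transcript, no window of 9 members occurred in any other gene, and 97.1% of those of Klk1b24 did not, the rest being shared with Klk1b21. Allowing 3 mismatches within the family, up to 33.1% of windows (Klk1b24) had a near copy, 27.7% for Klk1 and none for Klk1b4. Values of Klk1b24 are therefore uncertain, and the part of near copies in the UMIs of scarce members was not tested. Gm10109 overlaps Klk1, and Gm44756 overlaps Klk1b1 and Klk1b9, on the minus strand.

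Over the 23 clusters the member levels rose and fell together, with correlations of log2(UMIs per 10000 + 0.1) between 0.85 and 0.98 over pairs. For Klk1b1 and Klk1b24 only the granular or striated class and the class with granular and Ascl3 markers stood above the 0.1 added. The highest other class was at 0.079 for Klk1b1 and 0.082 for Klk1b24, so their correlations rest largely on those richer classes. Among 2592 genes outside Klk, Crisp3, a cysteine-rich secretory protein, had the pattern most like Klk1 (r = 0.96) and most like the summed Klk1b members (r = 0.96), followed in both by Scgb1c1 (0.91 and 0.90). Next named were Fxyd2 (0.90), Slit2 (0.90), Unc13b (0.89), Wfdc2 (0.87), Sema3c (0.87), Scnn1b (0.86) and Wnt4 (0.85) for Klk1. For the Klk1b sum these were Egf (0.89), Unc13b (0.87), Slit2 (0.84), Cracr2a (0.84), Fxyd2 (0.83), Stxbp6 (0.82) and Scnn1b (0.82). The points share 1 library.

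Of 19 genes for substrates, receptors, inhibitors and hormone receptors present in the matrix, 4 of the 15 with any UMI were highest in the granular or striated duct-like class (Egf, Ren1, Serpinb6a and Wfdc2). The share was 2.20% of the 6459 genes with at least 500 UMIs. That floor was not applied to the 15, and Ren1 among others lay below it, so the shares rest on unlike sets of genes. Egf is in the marker list that named this class and Wfdc2 in the general duct list, so their place partly restates the naming. Egf stood there at 5.68 UMIs per 10000 and 4.73 in cells with granular and Ascl3 markers, against 0.30 in Ascl3 and Foxi1 duct-like cells. Ren1, the renin gene, was nearly absent, with 24 UMIs in the granular or striated class and 41 in all. The kinin side was hardly seen: Kng1 (a kininogen) and Bdkrb1 (a kinin receptor) had no UMI, Kng2 had 1, Bdkrb2 had 12, of which 8 were in vascular-like cells, and F2rl1, the protease-activated receptor, had 194. Among inhibitors Wfdc2 was at 14.5 in the granular or striated class, 13.0 in cells with granular and Ascl3 markers and 10.00 in Ascl3 and Foxi1 duct-like cells, and Serpinb6a at 2.90, 2.65 and 2.01. Slpi was highest in lymphoid-like cells (0.35) and Serpinb5 in basal or myoepithelial-like cells (0.38), while Spink1 and Spink5 had no UMI. A count of 0 allows up to 0.00024 UMIs per 10000 over all cells pooled and up to 0.0156 in the granular or striated class. The thyroid hormone receptor gene Thrb was at 0.32 in granular or striated duct-like cells, 0.39 in those with granular and Ascl3 markers and 0.23 in Ascl3 and Foxi1 duct-like cells. The hormone receptor genes Nr3c1 (2.53), Thra (1.43) and Esr1 (0.14) were highest in mesenchymal-like cells, and Nr3c2 (0.35) and Pgr (0.23) in Ascl3 and Foxi1 duct-like cells.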

How the data were processed

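Single-cell RNA sequencing (10x Genomics, 3′ ends) was made from pooled SMG and SLG. The authors deposited UMI counts as 1 matrix; the submitters' processing notes name Cell Ranger 6.0.1, Seurat 4.1.1 and mm10. All 15707 barcodes were used (1374 to 141509 UMIs each, median 2608). The 26 Klk genes were removed, and the cells were clustered in Seurat 5.3.0 (R 4.3.3) with 2000 variable genes, 20 principal components and a resolution of 0.5. A cluster was named when at least 3 genes of a marker list were detected in 25% or more of its cells and the list's mean log2 fold over other cells was at least 1. The serous acinar-like class was the exception: no list reached that fold there, and it was named from detected genes of the serous list. Among duct clusters, the granular, Ascl3 and Slc13a2 lists needed 3 detected genes but no fold of their own. A cluster also stayed unnamed when a second cell type passed at 0.5 or more of the first's mean log2 fold. Clusters with a median under 500 genes, or led by Smgc, stayed unnamed; the naming rule was set after family levels by cluster had been seen. Scrublet (scanpy 1.11.5) called 0 doublets of 15707, a share too low to rely on, and no cell was removed as a doublet. A level is the summed UMIs of a gene per 10000 summed UMIs of a class (scipy 1.17.1). The 4 samples were pooled in 1 matrix whose barcodes cannot be tied to samples, so no test was run. Interval and fold code was tested on simulated data. The named genes were the 10 members, listed substrates, inhibitors and receptors, other Klk genes at 1 UMI per 10000 or more in a class, and the 10 genes most correlated with Klk1 or the Klk1b sum. Serpina3 was listed but not matched. Members and lists were chosen with earlier results of these data known. Promoter sequences are from RefSeq (GRCm38.p6), where all 10 members matched. Protein sequences were not used here. A few genes of the fixed lists and of the likeness ranking are not reported here.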

Additional observations from a re-analysis of the deposited data

How the results depend on the processing

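All 10 members stayed highest in a duct class under each of the 18 alternatives. In the clustering used, 42.3% of the 6459 genes with at least 500 UMIs were highest in a duct class. Some alternatives could not change the count of members. Keeping only members with mostly unique 3′ windows kept all 10. Leaving out unnamed clusters, or the class with granular and Ascl3 markers, only removed classes that ranked below the highest. The duct classes held 8.87% of all UMIs and 73.4% of family UMIs. The share of family UMIs was 73.8% at resolution 0.3, 71.5% at 0.8, 70.6% with 10 and 72.7% with 30 principal components, 75.8% with Klk genes kept in clustering, 73.7% with filtered cells, 68.3% as a mean over cells, 75.6% with a stand-in for free RNA subtracted and 77.1% without the 10% highest Scrublet scores. The log2 ratio of 4.24 became 4.45, 1.90, 1.90, 3.06, 4.22, 4.77, 3.22, 4.31 and 4.04 in the same order, 4.50 per 10000 UMIs outside the family and 3.65 in UMIs per cell. The stand-in was the mean UMIs of each member per lymphoid-like cell, taken off for every cell whatever its depth. Free RNA itself was not measured. At resolution 0.8 and with 10, 30 components or Klk genes kept, the highest other class was a cluster of 75, 85, 42 or 35 cells with both duct and lymphoid markers. Gating cells one by one gave 9.52% and 2.65, since serous acinar products gated most cells. The ratio there set 29 granular-gated cells against 15 ungated cells. Gating without secreted products, a change chosen after seeing the data like those that follow, gave 90.5% and 3.17. That ratio set 39 granular-gated cells against 1881 ungated cells. Leaving out the 5% of cells richest in the family gave 80.2% and 4.69, leaving out barcodes under 500 genes 82.1% and 4.35, leaving out the class with granular and Ascl3 markers 62.9%, and using no unnamed cluster 4.997. No paired analysis was possible because the matrix does not tie cells to samples, and no sample could be left out in turn. Depth limits Klk1b1 and Klk1b24 most, with 576 and 450 UMIs.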
